A study of Rattus norvegicus with 43 samples.

Results

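Messenger RNAs of the nuclear-encoded subunits of the respiratory chain and ATP synthase were followed in A7r5, a rat vascular smooth muscle line that was derived from embryonic aorta. The genes were chosen by symbol: the Nduf genes of complex I, Sdha to Sdhd of complex II, the Uqcr genes of complex III, the Cox4 to Cox8 genes of complex IV and the Atp5 genes of complex V, which is ATP synthase. Of 14217 genes with a probe set of their own on the array, 79 were members, and 73 of these passed the filter on low values among 9093 genes that did. Complex I contributed 35 members, of which 34 passed, complex II 4 of 4, complex III 7 of 7, complex IV 12 of 17 and complex V 16 of 16. Membership was defined by gene symbol, but the members were chosen with earlier results of these data known. The filter, and the choice among several probe sets of a gene by the highest mean, rested on measured values.

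Cells were kept in medium with 2.5, 10 or 100 ng/ml of folic acid, called deficient, sufficient and excess in the labels, and RNA was taken after 7, 14 or 21 days. All groups were the same line in a custom-made DMEM, and nothing but the folic acid and the time is given as differing. The 43 Affymetrix rat arrays fell into 9 groups: 4 deficient, 5 sufficient and 4 excess arrays at day 7, and 5 arrays of each medium at days 14 and 21. The labels do not say whether arrays of a group came from separate cultures, so p-values cover no more than the spread among these arrays, and that spread may be technical. Levels are log2 expression values, fold changes are differences of group means on that scale with their standard errors (SE), and a member was called changed at an adjusted p below 0.05 in limma over the 9093 genes.

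The respiratory chain passes electrons from NADH at complex I and from succinate at complex II through ubiquinone, complex III and cytochrome c to complex IV, cytochrome c oxidase, where oxygen is reduced. Complexes I, III and IV pump protons across the inner mitochondrial membrane, and ATP synthase makes ATP from the gradient. Some subunits of complex IV have tissue forms: Cox6a2 is the form of subunit VIa found in heart and skeletal muscle, and Cox6a1 is the form found in most other tissues.

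All 13 smooth muscle markers on the array passed the filter, as did 20 of 30 striated muscle markers, 1 of 8 macrophage markers (Cd14), 1 of 6 endothelial markers (Vwf), 1 of 7 epithelial markers (Krt8) and 0 of 6 adipocyte markers. The log2 ratio of the 3′ to the 5′ beta-actin control, a measure of RNA integrity and labelling, had medians between 1.66 and 1.91 in 7 groups, 2.37 in excess medium at day 14 and 2.30 in excess medium at day 21. It was above a 4-fold ratio in 3 arrays of each of these groups and in 2 of sufficient medium at day 7. Serial numbers 53 to 56 in the titles also belong to excess arrays of days 14 and 21 alone, 2 of each, so that excess results below are given with and without these arrays where they differ.

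Cox6a2 stood apart from the other members by the size of its changes. Its group means spanned 2.56 on the log2 scale over the 9 groups, against 0.11 to 0.87 for the other 72 members that passed the filter, whose median span was 0.37. Cox6a2 mRNA was lower in excess than in sufficient medium at each time, it was higher at day 21 than at day 7 in each medium, and its rise was smallest in excess medium. In RNA from a whole culture, fewer cells that express a gene and less mRNA per cell cannot be told apart.

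At day 7, Cox6a2 levels were 8.26, 8.16, 7.92, 7.94 and 7.95 in sufficient medium and 7.11, 6.87, 7.30 and 7.58 in excess medium. All 4 excess arrays were below all 5 sufficient arrays, and the fold change was −0.83 ± 0.10 (limma adjusted p = 1.29e-05). It was the 1 member called of 73, while 2.38% of all genes were called, 0.275% higher and 2.10% lower. Groups did not overlap for Cox6a2, Ndufs4 and Ndufv3, where 4.63% of all genes did not overlap. At day 14 the levels were 9.11, 9.12, 9.18, 9.40 and 9.10 in sufficient medium and 7.15, 7.32, 7.20, 7.31 and 7.03 in excess medium. The groups lay about as far apart at day 21, with 9.71, 9.38, 9.39, 9.43 and 9.24 in sufficient medium and 7.44, 7.37, 7.50, 7.66 and 7.60 in excess medium. The fold changes were −1.98 ± 0.10 at day 14, a 3.94-fold lower level, and −1.91 ± 0.10 at day 21, a 3.77-fold lower level (limma adjusted p = 2.7e-18 and 1.34e-18).

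The excess effect on Cox6a2 was larger at day 21 than at day 7 by a difference of −1.08 ± 0.15 (limma adjusted p = 3.61e-07 for the interaction). Without the arrays of a beta-actin ratio above 4-fold, the effect was −2.01 at day 14 and −2.02 at day 21, and without serials 53 to 56 it was −2.001 and −1.938. At day 7 the call was lost when the fit held the 2 groups alone (adjusted p = 0.126, the same fold change). Leaving out serials above 45 gave 8 called members at day 7 in place of 1, all lower, array weights gave 5, and the array series as a covariate gave 2. Leaving out a single array gave 6 called members at day 7 without excess replicate 6, 3 without sufficient replicate 6 and 2 without sufficient replicate 5. The share of all genes called in each of these settings is not given, and that of the main fit does not apply to them.

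**Figure D1:**
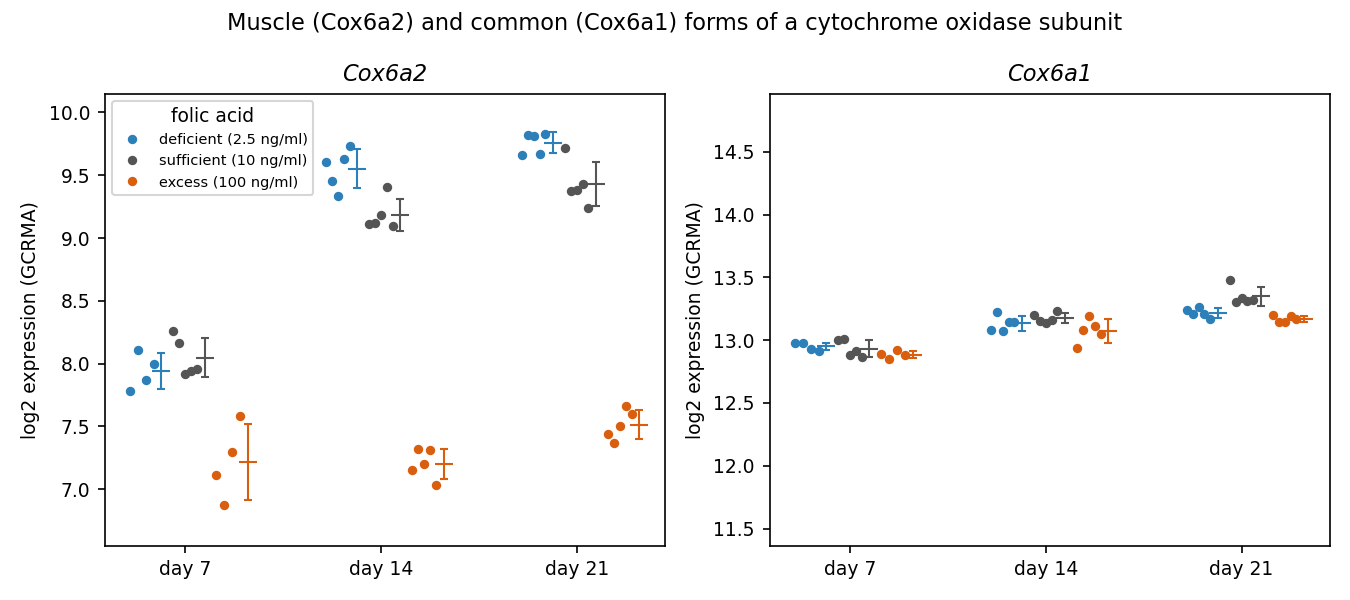
Log2 expression of Cox6a2 and Cox6a1 in each of the 43 arrays by day and folic acid, with the group mean and SD beside the points; both panels span the same number of log2 units. Excess arrays of Cox6a2 lie between 6.87 and 7.66 at all 3 times while the other media rise above 9 by day 14, and Cox6a1 varies little between media.

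In deficient medium Cox6a2 was not called at any time. Its levels were 7.786, 8.112, 7.867 and 7.997 at day 7, then 9.61, 9.46, 9.34, 9.63 and 9.74 at day 14, and 9.66, 9.82, 9.81, 9.67 and 9.83 at day 21. The deficient and sufficient groups overlapped at each of the 3 times. The fold changes against sufficient medium were −0.11 ± 0.11, 0.37 ± 0.10 and 0.33 ± 0.10 (limma adjusted p = 0.861, 0.124 and 0.118). With array weights those at days 14 and 21 passed the threshold (adjusted p = 0.0347 and 0.00589), and adding the array series as a covariate did so for day 21 (0.0476).

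From day 7 to day 21, Cox6a2 rose by 1.38 ± 0.10 in sufficient medium, a 2.60-fold increase, by 1.82 ± 0.11 in deficient medium and by 0.30 ± 0.11 in excess medium (limma adjusted p = 3.93e-15, 5.83e-18 and 0.0139). Day 7 and day 21 arrays did not overlap in sufficient or deficient medium, and they did in excess medium. The rise in excess medium lost its call without excess day 7 replicate 3 (0.18, adjusted p = 0.137), with its 2 groups alone in the fit (0.0667), without serials 53 to 56 (0.0611) and without arrays of a beta-actin ratio above 4-fold (0.257).

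The common form, Cox6a1, moved much less. Its levels at day 21 were 13.48, 13.30, 13.34, 13.31 and 13.32 in sufficient medium and 13.20, 13.15, 13.14, 13.19 and 13.17 in excess medium. The groups did not overlap, and the fold change was −0.18 ± 0.04 (limma adjusted p = 0.00132). Cox6a1 rose by 0.42 ± 0.04 over time in sufficient medium, 0.27 ± 0.05 in deficient and 0.28 ± 0.05 in excess medium.

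Several other tissue forms were near the bottom of the scale. Cox7b2, a tissue-restricted form of subunit VIIb, was not, with a mean of 11.72 against 12.94 for Cox7b. What its probe set detects was not tested. Cox4i2, Cox6b2, Cox7a1, Cox8b and Ndufa4l2 did not pass the filter and lay between 1.91 and 3.07 in all 43 arrays, and so did not pass a transcribed pseudogene with a matching name, Cox6c-ps1, at 3.10 to 4.01. Cox7a1 and Cox8b are, like Cox6a2, forms found in heart and skeletal muscle. Cox4i1, Cox6b1 and Cox8a, the common counterparts of Cox4i2, Cox6b2 and Cox8b, were measured well above the filter. Cox4i1 was lower in excess medium by 0.21 ± 0.05 at day 14 (limma adjusted p = 0.000369). Its levels were 12.85, 12.84, 12.80, 12.76 and 12.76 in sufficient and 12.70, 12.63, 12.47, 12.59 and 12.56 in excess medium, with no overlap.

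Striated muscle genes moved in the same arrays as Cox6a2. The mean of the 30 markers of that list on the array was 5.40 to 5.51 in sufficient and 5.34 to 5.40 in excess medium at day 7, 6.05 to 6.14 against 5.62 to 5.83 at day 14, and 6.39 to 6.47 against 5.71 to 5.79 at day 21. Of the 20 that passed the filter, 0 were higher and 2 lower in excess medium at day 7, 3 higher and 12 lower at day 14, and 3 higher and 14 lower at day 21, where the median was −0.70 against 0.03 for all genes. Among the lower genes at day 21 were Acta1, skeletal alpha-actin, by −2.79 ± 0.11 and Tnnt1, slow troponin T, by −3.14 ± 0.15. Among the higher genes was Ckmt2, the mitochondrial creatine kinase of striated muscle, by 0.63 ± 0.14. Myog, a regulator of muscle differentiation, and Mb, myoglobin, did not pass the filter. From day 7 to day 21 in sufficient medium 15 of the 20 rose and 2 fell, where 29.5% of all genes rose and 33.1% fell. Smooth muscle markers were lower in the same excess arrays: the mean of the 13 was 11.00 to 11.29 in sufficient and 10.85 to 10.96 in excess medium at day 14, and 11.15 to 11.39 against 10.71 to 10.82 at day 21. Of the 13, 0 were higher and 7 lower at day 14, and 0 were higher and 8 lower at day 21. Beside the counts of both lists in excess medium, 0.275% of all genes were higher and 2.10% lower at day 7. These shares were 22.3% and 18.8% at day 14, and 24.4% and 19.2% at day 21. The part of both lists in the Cox6a2 result was not tested.

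**Figure D2:**
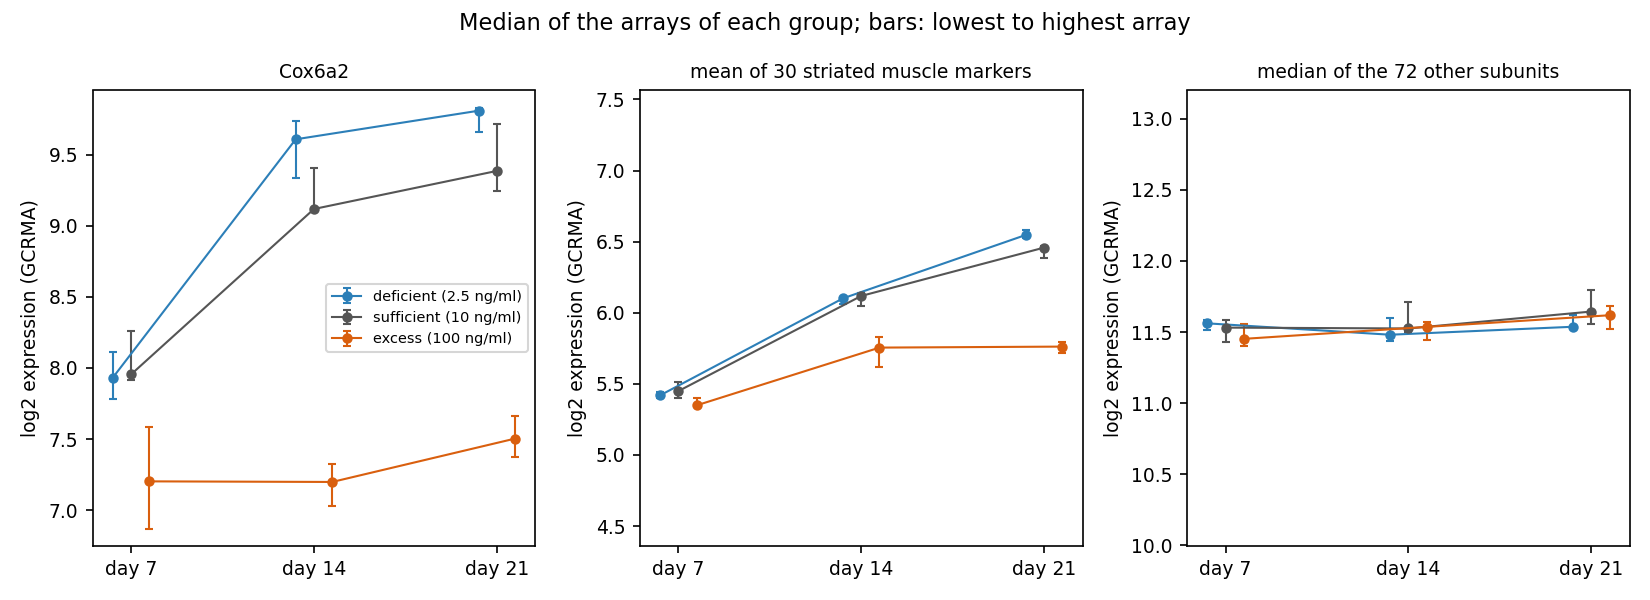
Median over the arrays of each group, with bars from the lowest to the highest array, of Cox6a2, of the mean of 30 striated muscle markers and of the median of the 72 other subunits, all in log2 units on axes of one length. Excess medium lies below the others at days 14 and 21 in the first panels, while the medians of the other subunits lie between 11.45 and 11.64 in all 9 groups.

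The promoter of Cox6a2 was read from RefSeq (GRCr8 assembly) and is shown because this gene changed most. The window runs from 250 bases before to 50 bases after the start and lies on the minus strand at chr1:192219667-192219966. Capitals mark a 10-letter binding sequence of the MEF2 muscle factors, which begins 50 bases before the start, and 4 copies of the E-box CANNTG, which bHLH factors such as MyoD bind. The matches do not overlap each other.
Cox6a2: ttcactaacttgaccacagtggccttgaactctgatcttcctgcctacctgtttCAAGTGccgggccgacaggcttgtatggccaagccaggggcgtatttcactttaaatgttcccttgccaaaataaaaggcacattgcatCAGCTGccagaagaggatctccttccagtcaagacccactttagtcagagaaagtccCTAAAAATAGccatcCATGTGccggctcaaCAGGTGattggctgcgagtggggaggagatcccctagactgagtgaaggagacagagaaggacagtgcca

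Windows of the same length were found for 71 of the 79 members, and both strands were searched. The MEF2 letters were in 1 of the 71, Cox6a2, and in 46 of all 33469 promoters of the table (0.137%). The E-box was in 60.6% of members and 72.1% of all promoters. A match of letters is a description of the window and shows no binding.

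Deficient medium left the members without a call. In deficient against sufficient medium 0 of 73 members were called at day 7, where 0% of all genes were, 0 at day 14, where 0.0880% were (0.0330% higher and 0.0550% lower), and 0 at day 21, where 0.781% were (0.407% higher and 0.374% lower; limma). Unadjusted limma p-values below 0.05 were found for 2, 5 and 17 members. The share of all genes at that unadjusted limit is not given, so these counts show nothing particular to the members. At day 21, 61 of the 73 members were below zero with a median of −0.09. The median of all genes is not given for this comparison. All members share the same arrays, so their directions are not independent. The median of complex I members in an array ran from 11.12 to 11.58 in sufficient and from 11.14 to 11.19 in deficient medium then. The smallest limma adjusted p was 0.062, for Uqcr11, a small subunit of complex III, at −0.21 ± 0.06.

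The deficient and sufficient arrays did not overlap for Uqcrfs1 at day 7 and Ndufb7 at day 14, where 2.42% and 1.88% of all genes did not overlap. At day 21 they did not overlap for 7 members, Atp5mc3, Atp5mf, Cox6a1, Cox7a2l, Cox7b2, Ndufa11 and Ndufb8, where 4.39% of all genes did not overlap. The largest fold change among them was that of Cox7b2, a tissue-restricted form of complex IV subunit VIIb. Its levels were 11.47, 11.56, 11.48, 11.52 and 11.65 in deficient and 12.14, 11.74, 11.66, 11.85 and 11.68 in sufficient medium, −0.28 ± 0.09 (limma adjusted p = 0.149). For 71 of the 72 members other than Cox6a2, the 95% interval of the fold change lay within 0.5 on the log2 scale at each of the 3 times. The exception was Cox5a, whose single-gene probe set was dim, with intervals from −0.56 to 0.75 over the 3 times.

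No member was called for a difference between the deficiency effects of day 21 and day 7 (0 of 73 by limma). Of all genes 0.0440% were called, 0.0220% higher and 0.0220% lower. For 12 members the unadjusted limma p was below 0.05. The median difference was −0.11, and 66 of 73 were below zero. The unadjusted share, the median and the directions of all genes are not given for this comparison. These member values thus show nothing particular to the members, which share the same arrays. Some other settings called members at day 21: 4 with array weights, 4 with serials up to 45, 5 with the array series as a covariate, 1 with the stricter filter, and 1 without sufficient day 21 replicate 2 or replicate 6. At day 14, array weights called 1. The shares of all genes above are those of the main fit and do not apply to these settings.

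**Figure D3:**
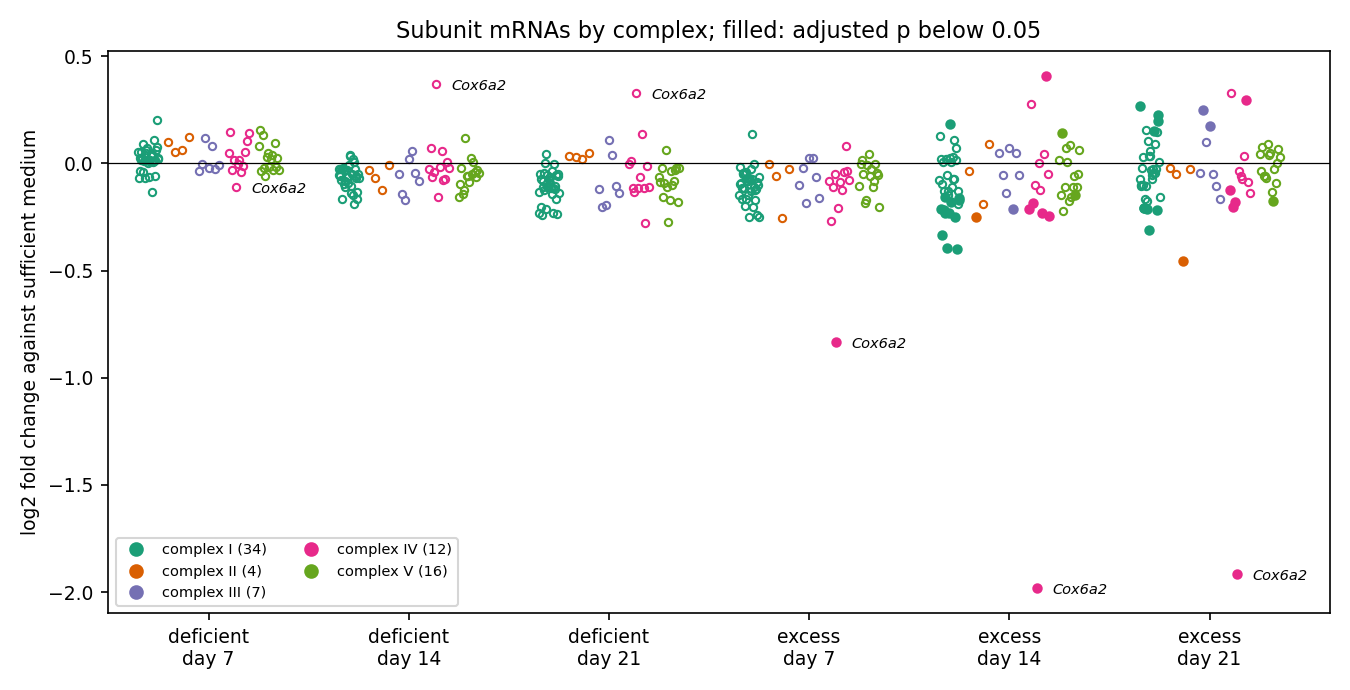
Log2 fold change of each of the 73 members against sufficient medium, by complex, in deficient and excess medium at days 7, 14 and 21; filled points have an adjusted p below 0.05. No point is filled in deficient medium, and in excess medium Cox6a2 lies at −0.83, −1.98 and −1.91 while the others stay between −0.46 and 0.41.

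Excess medium moved further members by small amounts from day 14 on. At day 14, 23 of 73 members (31.5%) were called, 3 higher and 20 lower, while 41.2% of all genes were called, 22.3% higher and 18.8% lower. The median of the members was −0.10 and that of all genes 0.01. Other than Cox6a2 none of the 23 changed by 1.5-fold. Arrays of the groups did not overlap for 13 of the 23 called members and for 15 of all 73, where 20.9% of all genes did not overlap.

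By complex, 1 of 34 complex I members was higher and 12 were lower at day 14, in complex II 0 were higher and 1 lower of 4, in complex III 0 and 1 of 7, in complex IV 1 and 5 of 12, and in complex V 1 and 1 of 16. In complex I the lowest was Ndufs7, a core subunit that holds an iron-sulfur cluster, with 10.42, 10.42, 10.31, 10.38 and 10.21 in sufficient and 9.90, 9.98, 10.08, 9.91 and 9.87 in excess medium. All excess arrays lay below all sufficient ones, at −0.40 ± 0.09 (limma adjusted p = 0.000371). Ndufb10, an accessory subunit of the membrane arm, had 11.32, 11.39, 11.35, 11.38 and 11.47 in sufficient and 10.78, 11.09, 11.10, 11.02 and 10.96 in excess medium. These did not overlap either, at −0.39 ± 0.05 (limma adjusted p = 3.4e-07). Ndufa3, another accessory subunit, was lower by 0.33 ± 0.10 with overlapping groups.

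Sdhb, the iron-sulfur subunit of complex II, was lower at day 14 by 0.25 ± 0.06. Uqcrfs1, the Rieske iron-sulfur protein of complex III, was lower by 0.21 ± 0.06, and Ndufs3, another core subunit of complex I, by 0.25 ± 0.07. In complex IV, Cox8a fell by 0.25 ± 0.09, Cox7a2l, which helps join complexes into supercomplexes, by 0.23 ± 0.06 and Cox5b by 0.18 ± 0.07. In complex V, Atp5pb of the peripheral stalk was lower by 0.15 ± 0.06.

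The 3 higher members at day 14 were Cox7b2, Ndufb5 of the complex I membrane arm and Atp5f1c, the gamma subunit that turns inside ATP synthase. Cox7b2 had 11.47, 11.41, 11.47, 11.82 and 11.65 in sufficient and 12.024, 12.002, 11.872, 11.978 and 11.982 in excess medium. Every excess array was above every sufficient one, at 0.41 ± 0.09 (limma adjusted p = 0.000427). Ndufb5 was higher by 0.18 ± 0.07 and Atp5f1c by 0.14 ± 0.05, both with overlapping groups. The call of Ndufb5 was lost without any 1 of 6 of the 10 arrays (sufficient replicates 1, 2 and 3, excess replicates 1, 3 and 4), with adjusted p from 0.0856 to 0.14. Atp5f1c lost its call without any 1 of 4 (sufficient replicates 1 and 2, excess replicates 1 and 4), with adjusted p from 0.0535 to 0.111.

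At day 21, 18 of 73 members (24.7%) were called in excess medium, 7 higher and 11 lower, while 43.7% of all genes were called, 24.4% higher and 19.2% lower. The median of the members was −0.04 and that of all genes 0.03. With each array centred on its median, the split was 3 higher and 16 lower. Groups did not overlap for 3 members, Cox6a1, Cox6a2 and Uqcrc2, where 27.4% of all genes did not overlap. Of the 20 members lower at day 14, 7 (35%) were lower at day 21 too, which is 63.6% of the 11 lower then: Cox4i1, Cox5b, Cox6a2, Ndufa6, Ndufb10, Ndufb3 and Ndufs7. The same overlap over all genes is not given, so this one is not shown to be particular to the members. Cox7b2 was the 1 member higher at both times.

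The lowest member after Cox6a2 at day 21 was Sdhc, a membrane anchor of complex II. Its levels were 11.01, 10.93, 10.71, 11.04 and 10.97 in sufficient and 10.94, 10.38, 10.28, 10.44 and 10.34 in excess medium. Excess replicate 1 lay among the sufficient arrays and the other 4 lay below them, and the fold change was −0.46 ± 0.12 (limma adjusted p = 0.00183). Without arrays of a beta-actin ratio above 4-fold it was −0.27 (adjusted p = 0.227) and with serials up to 45 it was −0.33 (0.0685). Ndufb3, an accessory subunit of complex I, was lower by 0.31 ± 0.09 and Ndufs7 by 0.22 ± 0.09.

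Cox7b2 was higher in excess medium at day 21 by 0.29 ± 0.09 (12.14, 11.74, 11.66, 11.85 and 11.68 against 12.22, 12.10, 11.96, 12.08 and 12.18, overlapping through sufficient replicate 1; limma adjusted p = 0.00744). Ndufa11, a membrane subunit of complex I, was higher by 0.27 ± 0.08, Uqcr11 by 0.25 ± 0.06 and Ndufs8, a core iron-sulfur subunit of complex I, by 0.22 ± 0.09. Ndufs8 lost its call without any 1 of 7 of the 10 arrays (sufficient replicates 3, 4 and 6, excess replicates 1, 3, 4 and 5), with adjusted p from 0.0542 to 0.133. Ndufs7 lost its call without any 1 of 6 (sufficient replicates 1, 2 and 3, excess replicates 2, 4 and 5), with adjusted p from 0.0606 to 0.12. Uqcrc2, a core protein of complex III, was higher by 0.17 ± 0.07 (limma adjusted p = 0.0359), while a second probe set of that gene gave −0.28 ± 0.18 (0.22). For Ndufv3, a small accessory subunit of complex I, the probe set used gave −0.16 without a call, and a second, dimmer one gave −0.81 ± 0.11 (1.93e-07), so that its response to excess medium is uncertain.

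The counts in excess medium were lower in several other settings, and the cause was not tested. The exclusions leave fewer arrays, while the fit of the 2 groups alone keeps all arrays of those groups. Without arrays of a beta-actin ratio above 4-fold, which leaves 2 excess arrays at each day, 11 members were called at day 14 and 7 at day 21. With serials up to 45 there were 10 at each day, with the 2 groups alone in the fit 12 and 8, and without serials 53 to 56 there were 9 at day 21. Without excess day 21 replicate 3, or without replicate 5, 11 were called at day 21.

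The excess effect differed between day 21 and day 7 for 5 of 73 members, 4 higher and 1 lower, while it differed for 24.5% of all genes, 17.0% higher and 7.53% lower (limma). The lower member was Cox6a2. The higher ones were Ndufc2, an accessory subunit of complex I, at 0.26 ± 0.08 (adjusted p = 0.0202), Ndufs6, a zinc-binding accessory subunit, at 0.27 ± 0.09 (0.0254), Uqcr11 at 0.27 ± 0.08 (0.0119) and Ndufv1, the core subunit that binds NADH, at 0.30 ± 0.11 (0.0452). Centring each array on its median moved the median of all genes in this comparison from 0.09 to −0.03 and gave 0 higher and 4 lower members. The 4 higher ones stayed above zero under centring, at 0.14 to 0.18, and lost their calls. Ndufv1 lost its call without any 1 of 10 of the 19 arrays (sufficient day 7 replicates 1, 2 and 4, excess day 7 replicates 1 and 4, sufficient day 21 replicates 3, 4 and 6, excess day 21 replicates 1 and 5). Ndufs6 lost it without sufficient day 7 replicate 1 or 2 or sufficient day 21 replicate 3 or 6, and Ndufc2 without excess day 7 replicate 3. The number called was 3 without sufficient day 7 replicate 1 or 2 or sufficient day 21 replicate 3 or 6, 8 without excess day 7 replicate 6 and 11 without sufficient day 21 replicate 1.

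More members were called over time in culture than between media at any single time. From day 7 to day 21 in sufficient medium 47 of 73 members (64.4%) were called, 39 higher and 8 lower, while 62.6% of all genes were called, 29.5% higher and 33.1% lower. The median of the members was 0.15 and that of all genes −0.02. Only 3 members changed by 1.5-fold or more, Cox6a2, Ndufv3 and Ndufa1. Groups did not overlap for 22 members, where 43.7% of all genes did not overlap.

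In deficient medium 38 were called over the same time, 22 higher and 16 lower, while 64.8% of all genes were, 30.7% higher and 34.1% lower. With each array centred on its median the split was 35 higher and 9 lower. Groups did not overlap for 45 members, where 60.1% of all genes did not. In excess medium 45 were called, 41 higher and 4 lower, while 60.0% of all genes were, 34.6% higher and 25.4% lower, and groups did not overlap for 36 members, where 44.4% of all genes did not. The 3 comparisons share no arrays, and 22 members rose in all of them and 4 fell in all of them (Atp5f1b, Atp5f1d, Ndufs1 and Uqcrfs1). How many of all genes rose or fell in all 3 media is not given, so this overlap is not shown to be particular to the members. All 22 members that rose in deficient medium rose in sufficient medium, and the 22 were 56.4% of those that rose there.

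Subunits of complex IV rose over time in sufficient medium in 10 of 12 cases and fell in 0. Cox7a2l had 11.77, 11.77, 11.67, 11.65 and 11.85 at day 7 and 12.19, 12.29, 12.21, 12.25 and 12.14 at day 21. The groups did not overlap, and it rose by 0.47 ± 0.06 (limma adjusted p = 4.34e-08). Cox7c rose by 0.45 ± 0.06, Cox6c by 0.32 ± 0.05 and Cox6b1 by 0.26 ± 0.07. Cox5a, the lowest of the complex, was not called at −0.24 ± 0.28.

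In complex I, 17 of 34 members rose and 4 fell. The core subunits, which carry the cofactors and the electron path, and the accessory subunits around them are given apart; this grouping is the textbook one and was made after the values had been seen. Of 6 core subunits tested, 0 rose and 4 fell, and all 6 were below zero with a median of −0.22. Of 27 accessory subunits, Ndufa4 left out, 16 rose and 0 fell, with a median of 0.23. Quantile normalization and median centring each gave 0 rising and 3 falling core subunits, and 16 and 20 rising accessory subunits with 0 falling.

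Among the core subunits of complex I, Ndufs3 had 10.22, 10.37, 10.05, 10.07 and 9.94 at day 7 and 9.94, 9.76, 9.66, 9.69 and 9.69 at day 21 in sufficient medium. All later arrays lay at or below the lowest early one, and it fell by 0.38 ± 0.07 (limma adjusted p = 3.29e-05). Ndufv1 fell by 0.35 ± 0.08, Ndufs8 by 0.32 ± 0.09 and Ndufs1, the largest subunit of the complex, by 0.13 ± 0.05. In deficient medium 5 of 6 core subunits fell (4 with quantile normalization, 3 with median centring), with Ndufs8 lowest: 9.94, 10.24, 10.12 and 10.18 at day 7 and 9.45, 9.47, 9.07, 9.49 and 9.36 at day 21. No arrays overlapped, and the fall was 0.75 ± 0.10 (limma adjusted p = 1e-08). In excess medium 1 of 6 fell, Ndufs1, by 0.17 ± 0.05. Of the 27 accessory subunits 11 rose and 3 fell in deficient medium, where Ndufa11 fell by 0.33 ± 0.08, Ndufb11 by 0.29 ± 0.08 and Ndufs6 by 0.16 ± 0.07, and 19 rose and 0 fell in excess medium.

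Among the accessory subunits, Ndufv3 had 9.65, 9.58, 9.42, 9.53 and 9.38 at day 7 and 10.35, 10.06, 10.06, 10.09 and 10.09 at day 21 in sufficient medium. It rose by 0.62 ± 0.07, with no overlap (limma adjusted p = 1.14e-09), and its second probe set rose by 0.88 ± 0.11. Ndufa1, a small membrane subunit needed for assembly, had 12.40, 12.42, 12.24, 12.25 and 12.08 at day 7 and 13.16, 12.78, 12.74, 12.89 and 12.82 at day 21. It rose by 0.60 ± 0.07, again with no overlap (limma adjusted p = 7.8e-10). In excess medium Ndufv3 rose by 0.71 ± 0.08, Ndufa1 by 0.67 ± 0.07 and Ndufc2 by 0.55 ± 0.06, but the second probe set of Ndufv3 gave 0.10 ± 0.12 there. Ndufb8, whose probe set was dim, rose by 0.55 ± 0.12 in sufficient medium. Ndufa4, named as a complex I gene but placed in cytochrome c oxidase, rose by 0.16 ± 0.06.

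In complex II, Sdhc rose in sufficient medium from 10.35, 10.38, 10.38, 10.21 and 10.46 at day 7 to 11.01, 10.93, 10.71, 11.04 and 10.97 at day 21. The groups did not overlap, at 0.58 ± 0.12 (limma adjusted p = 6.15e-05). Sdha, the flavoprotein, rose by 0.15 ± 0.05, and Sdhd, the other anchor, was not called at −0.07. Sdhc also rose in deficient medium by 0.54 ± 0.13 and in excess medium by 0.38 ± 0.13.

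In complex III, 2 of 7 members rose and 2 fell in sufficient medium (4 and 1 with median centring). The core protein Uqcrc1 had 11.19, 11.12, 10.83, 10.97 and 10.58 at day 7 and 10.87, 10.38, 10.60, 10.29 and 10.28 at day 21 in sufficient medium. The groups overlapped, and it fell by 0.46 ± 0.11 (limma adjusted p = 0.000545). In deficient medium the same gene had 10.95, 11.08, 11.17 and 11.02 at day 7 and 10.24, 10.37, 10.20, 10.28 and 10.37 at day 21. There all later arrays were lower, and the fall was 0.77 ± 0.12 (limma adjusted p = 5.37e-07). Uqcrfs1 fell in sufficient medium by 0.19 ± 0.06, while Uqcrh, the hinge protein, rose by 0.26 ± 0.06 and Uqcr10, a small subunit, by 0.17 ± 0.06.

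In ATP synthase, 8 of 16 members rose and 2 fell in sufficient medium (10 and 1 with median centring). Of the 5 subunits of the catalytic F1 part, 2 fell and 1 rose. Atp5f1b, the catalytic beta subunit, fell by 0.33 ± 0.07 and Atp5f1d, the delta subunit, by 0.26 ± 0.09 (limma adjusted p = 7.45e-05 and 0.0133). Atp5f1e, the epsilon subunit, rose by 0.30 ± 0.06, and by 0.23 ± 0.07 in deficient and 0.43 ± 0.07 in excess medium. Atp5f1a, the alpha subunit, and Atp5f1c were not called in sufficient medium, at −0.11 ± 0.08 and −0.01 ± 0.05. Atp5f1b had 12.95, 12.91, 12.92, 12.79 and 12.65 at day 7 and 12.68, 12.53, 12.49, 12.47 and 12.40 at day 21, overlapping through 1 array of each group. In deficient medium it fell by 0.57 ± 0.07, Atp5f1d by 0.55 ± 0.10 and Atp5f1a by 0.26 ± 0.09. In excess medium Atp5f1b and Atp5f1d fell by 0.36 ± 0.07 and 0.27 ± 0.10. The last of these lost its call without excess day 7 replicate 4 (0.24, adjusted p = 0.0566). Atp5mg, a membrane subunit of the Fo part, rose most in sufficient medium, by 0.41 ± 0.07, and Atp5if1, the inhibitor of the enzyme, rose by 0.19 ± 0.07, with a second, dim probe set at −0.10 ± 0.14.

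**Figure D4:**
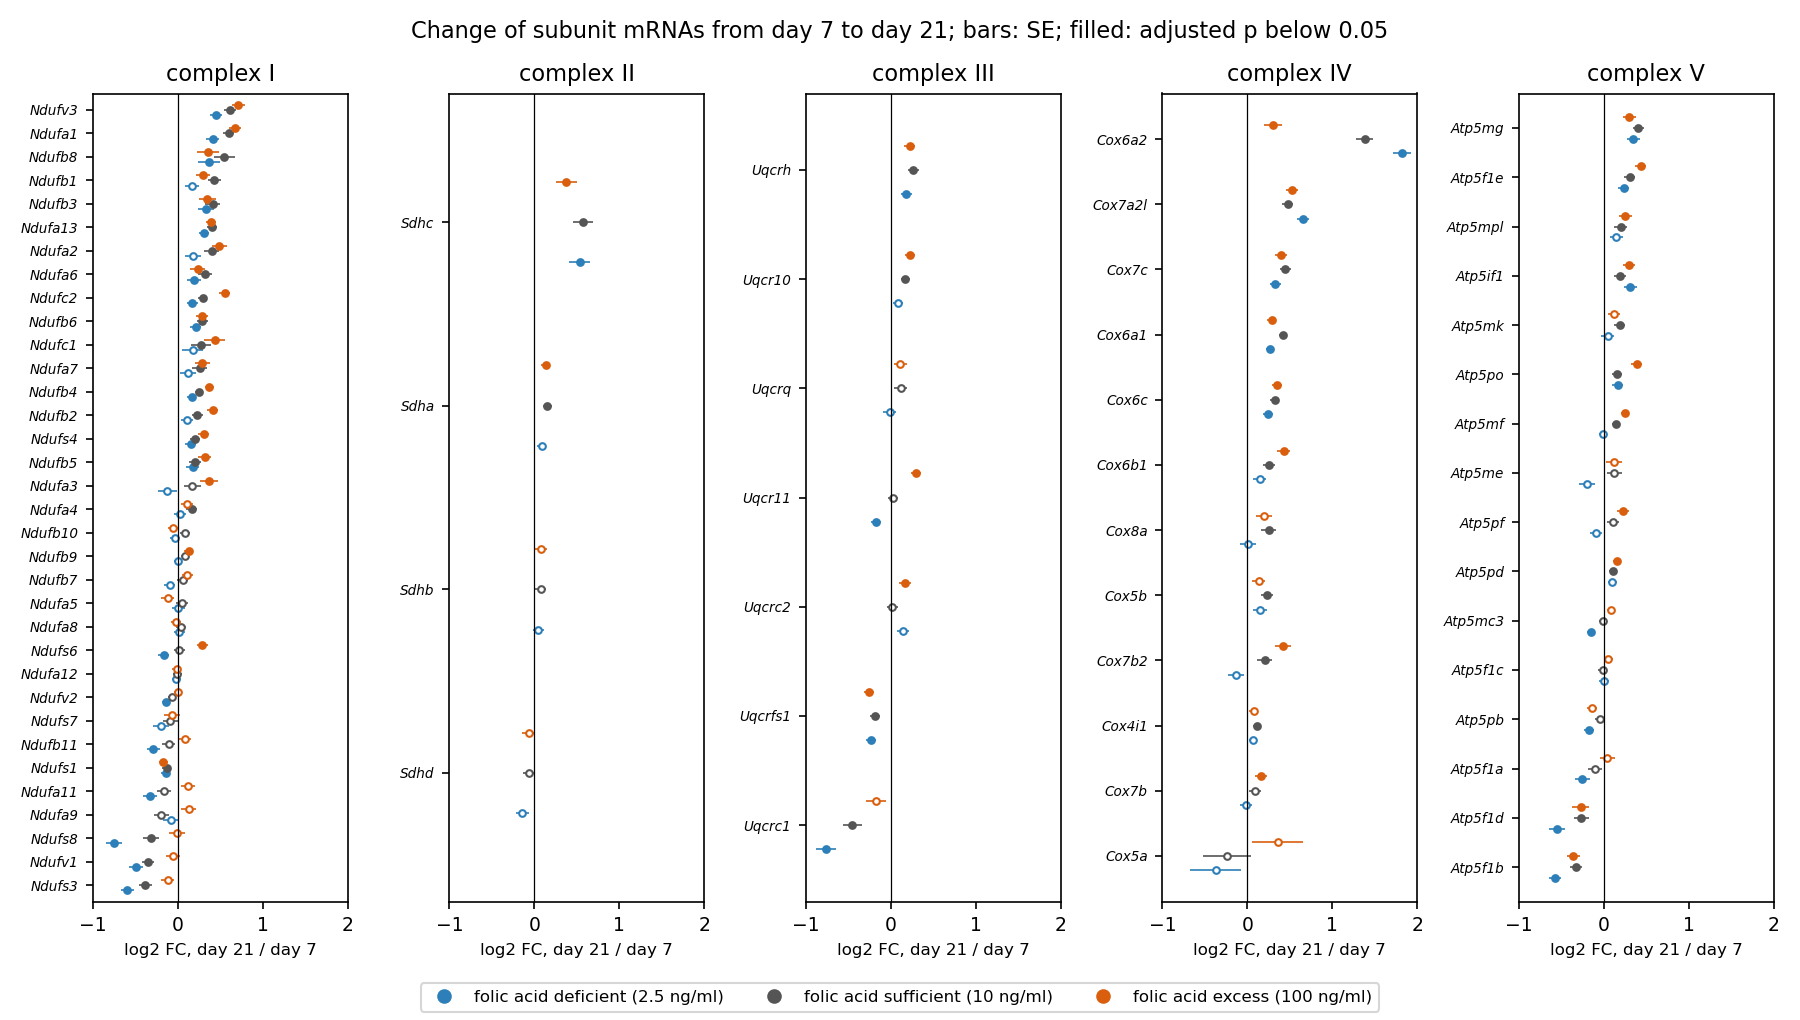
Log2 fold change from day 7 to day 21 of the 73 members, 1 panel per complex, ordered by the change in sufficient medium; bars are SE and filled points have an adjusted p below 0.05. Cox6a2 spans 0.30 in excess to 1.82 in deficient medium, and Ndufs3, Ndufs8, Ndufv1, Uqcrc1 and Atp5f1b lie at the falling end of their complexes.

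The promoters of Ndufv3 and Uqcrc1, among the members that rose and fell most over time, are shown beside that of Cox6a2 for the letters of factors known from housekeeping promoters of this pathway. They lie on the plus strand at chr20:9613536-9613835 and chr8:118467973-118468272 (RefSeq, GRCr8). Capitals mark the 10-letter sequence bound by NRF1 in both, and in Uqcrc1 also AANATGGCG, bound by YY1, across the start, and 2 E-boxes. The matches do not overlap each other.
Ndufv3: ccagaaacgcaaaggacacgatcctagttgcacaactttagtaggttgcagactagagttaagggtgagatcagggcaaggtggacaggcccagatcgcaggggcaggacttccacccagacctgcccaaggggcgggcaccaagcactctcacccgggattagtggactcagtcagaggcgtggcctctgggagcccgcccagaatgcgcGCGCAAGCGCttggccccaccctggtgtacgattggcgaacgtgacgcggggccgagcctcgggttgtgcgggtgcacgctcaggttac
Uqcrc1: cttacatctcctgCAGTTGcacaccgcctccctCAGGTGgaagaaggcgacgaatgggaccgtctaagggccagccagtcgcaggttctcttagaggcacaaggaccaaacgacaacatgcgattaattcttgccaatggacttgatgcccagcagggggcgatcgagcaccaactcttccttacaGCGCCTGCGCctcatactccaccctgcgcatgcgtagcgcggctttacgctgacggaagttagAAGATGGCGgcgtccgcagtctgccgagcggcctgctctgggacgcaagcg

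The NRF1 letters were in 13 of 71 members (18.3%) and in 4.25% of all promoters, the YY1 letters in 18 (25.4%) and 3.01%, and the ETS letters CCGGAAGT in 8 (11.3%) and 3.81%. Both a member that rose and a member that fell held the NRF1 letters. The window of Cox6a2 held none of these 3.

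Genes around the complexes were counted in excess medium at day 21 and over time in sufficient medium. Those of glycolysis are given for excess medium alone. Of 12 electron carriers tested, 1 was higher and 2 lower in excess medium, with Coq7 at 0.23, Etfb at −0.43 and Coq5 at −0.37, and 3 rose and 3 fell over time. Of 41 assembly factors 2 were higher and 11 lower in excess medium (Cox16 0.47 and Lrpprc 0.15, Sdhaf3 −0.51 and Ndufaf3 −0.37), and 12 rose and 10 fell over time. Of 73 mitochondrial ribosomal proteins 15 were higher and 7 lower, and 12 rose and 29 fell, with a median of −0.08 over time (19 rose and 26 fell with median centring). Beside these counts, 43.7% of all genes were called in excess medium at day 21, 24.4% higher and 19.2% lower. Over time in sufficient medium 62.6% were called, of which 29.5% of all genes rose and 33.1% fell.

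Of 18 genes of the tricarboxylic acid cycle 2 were higher and 6 lower in excess medium at day 21, and 7 rose and 7 fell over time. Of 15 regulators of mitochondrial biogenesis 8 were higher and 0 lower in excess medium, with a median of 0.24 and Esrrg and Nrf1, transcription factors for respiratory genes, at 0.65 and 0.60. Over time in sufficient medium 2 of these regulators rose and 8 fell, with Esrrg at 0.89, Polg, the mitochondrial DNA polymerase, at −0.54 and Tfam, which packages that DNA, at −0.47. With median centring the split over time was 5 and 6. Of 16 genes of glycolysis and lactate or glucose transport 3 were higher and 10 lower in excess medium. Pfkp was at −1.58 and Slc16a1 at −0.74, and the muscle forms Pfkm and Eno3 were at 0.65 and 0.53. The same shares of all genes apply here, 24.4% higher and 19.2% lower in excess medium at day 21. Over time in sufficient medium 29.5% of all genes rose and 33.1% fell.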

How the data were processed

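The authors deposited log2 expression values of 31099 Affymetrix probe sets on 43 arrays, made with GCRMA, per the submitters' processing notes, which also name limma and give no versions. GCRMA corrects background by probe sequence, normalizes arrays by quantiles and summarizes probes. Array medians lay between 3.66 and 3.73, and a value near the bottom of the scale blurs a fold change. The number of arrays limits the precision.

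Probe sets with 1 platform symbol (20832) were named, those with several (436, among them 7 of these gene families) or no entry (9831) were not, and of several probe sets of a gene the one with the highest mean over the 43 arrays was used. Genes above log2 4 in at least 4 arrays were tested, 9093 in all. One linear model of the 9 group means was fitted in limma 3.58.1 (R 4.3.3; 34 residual degrees of freedom), with two-sided tests, Benjamini-Hochberg adjustment over all genes tested and 11 comparisons. The procedure was tested on simulated data. The members and lists were chosen with earlier results of these data known. Named members are Cox6a2, the tissue forms, up to 4 highest and 4 lowest called members of each comparison, the extremes of each complex over time, and all called members where 5 or fewer were called; others were chosen after their values were seen. Alternatives were 2 other scalings, 2 filters, the mean of probe sets, array weights, covariates, array exclusions, a replicate block and each array left out; 2 exclusions were chosen after seeing the data. Plots used Python 3.11.15 and matplotlib 3.10.9.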

Additional observations from a re-analysis of the deposited data

Results flagged for a closer look

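Among 88 groups of 4 or 5 arrays checked for the named members, 6 held an array far from the rest, where chance gives about 1 in 20. Cox6a2 in sufficient medium at day 14 was 9.40 in replicate 4 and 9.10 to 9.18 in the others. Ndufs1 in excess medium at day 21 was 11.18 in replicate 1 and 11.02 to 11.07 in the others, and Sdhc in the same array was 10.94 against 10.28 to 10.44. Ndufs3 in deficient medium at day 7 was 10.35 in replicate 6 and 10.19 to 10.21 in the others. In sufficient medium at day 21, replicate 1 was highest for Ndufv3, with 10.35 against 10.06 to 10.09, and for Uqcr11, with 12.25 against 11.89 to 11.96.

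The effect of excess medium differed between day 21 and day 7, by the test of the difference itself in limma, for Cox6a2 at −1.08 (adjusted p = 3.61e-07), Ndufc2 at 0.26 (0.0202), Ndufs6 at 0.27 (0.0254), Uqcr11 at 0.27 (0.0119) and Ndufv1 at 0.30 (0.0452). With arrays centred on their medians the last 4 of these were not called.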

How the results depend on the processing

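Of 1203 values of named members under other settings, 1080 (89.8%) kept their direction and side of the threshold, 114 lost the call, 3 gained one and 6 turned. Cox6a2 in excess medium at days 14 and 21 kept its call in every setting run. Numbers of called members that moved by over 1.5 times were as follows, with the main number first and the limit of 3-fold on the beta-actin ratio left out. For deficient medium at day 21 (0), array weights gave 4, serials up to 45 gave 4, the series covariate 5 and the stricter filter 1. At day 14 (0), array weights gave 1. For excess medium at day 7 (1), array weights gave 5, serials up to 45 gave 8, the series covariate 2, the exclusion of serials 53 to 56 gave 2, and the 2 groups alone gave 0. At day 14 (23), beta-actin ratios up to 4-fold gave 11, serials up to 45 gave 10 and the groups alone 12. At day 21 (18), ratios up to 4-fold gave 7, serials up to 45 gave 10, the groups alone 8 and the exclusion of serials 53 to 56 gave 9. For time in sufficient medium (47), ratios up to 3-fold gave 24. For the change of the excess effect (5), array weights gave 11, the beta-actin covariate 3, and the groups alone and ratios up to 4-fold 1 each. Exclusions leave fewer arrays, and fits of the groups alone have fewer residual degrees of freedom. The cause of the other shifts was not tested. Shares of all genes called are given for the main fit alone, so whether members or all genes gained or lost calls was not tested.

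Turned values were those without ratios above 3-fold, Atp5f1c −0.0168 and Ndufb5 −0.14 in excess medium at day 14, Uqcrc1 0.29 and Atp5f1b 0.0309 over time in sufficient medium, and those without ratios above 4-fold, Cox6a2 0.0014 in deficient medium at day 7 and Ndufb5 −0.00179 in excess medium at day 14. The limit of 3-fold leaves 9 arrays and 2 residual degrees of freedom: 1 array each of sufficient and excess medium at day 7, of deficient and excess medium at day 14 and of sufficient medium at day 21, and 2 each of sufficient medium at day 14 and deficient medium at day 21. Every value at that limit thus has an arm of 1 array, assumed to vary like the other groups, and shows nothing about stability. No number of called members is given for that limit. No deficient day 7 or excess day 21 array is left, so comparisons that need them have no such value.

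Leaving out 1 array gave 0 called members in deficient medium at days 7 and 14 and 0 to 1 at day 21, 1 to 6, 16 to 23 and 11 to 20 in excess medium at days 7, 14 and 21, 33 to 38, 36 to 48 and 39 to 48 over time in deficient, sufficient and excess medium, 0 for the change of the deficiency effect and 3 to 11 for that of the excess effect.

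Arrays were treated as unpaired, and the labels do not say whether replicate numbers pair them. Correlations of deviations between same-numbered arrays ran from −0.54 to 0.59 and were not all above 0.1 in any comparison. They were above 0.1 for 3 of 4 pairs in deficient against sufficient medium at day 14 and over time in sufficient medium. In each other comparison at most 1 pair was. With 3 or 4 pairs per comparison, these values cannot decide whether the arrays are paired. With the replicate number as a block, called members numbered 0, 0 and 0 in deficient medium, 1, 21 and 15 in excess medium at days 7, 14 and 21, 39, 47 and 45 over time in deficient, sufficient and excess medium, and 0 and 4 for the changes of the deficiency and excess effects.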
